A study of Mus musculus with 4 samples.

Results

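Natural killer (NK) cells are innate lymphocytes that kill stressed or infected cells without rearranged antigen receptors. They release perforin and granzymes from cytotoxic granules, and the balance between activating receptors such as NKp46 (encoded by Ncr1) and inhibitory receptors of the Ly49 family (Klra genes), which read MHC class I, sets whether a target is killed. In the lung most NK cells are circulating, Eomes-expressing cells that lie in the capillary bed, and they are a source of the chemokines CCL3, CCL4, CCL5 and XCL1 and of interferon-γ. The cells were described here in lungs of 2 wild-type (WT) and 2 Tubb3-/- mice, all given 0.8 U/kg bleomycin into the trachea and harvested on day 14. Tubb3-/- mice were homozygous for a Cre knock-in placed at the start codon of Tubb3, the gene of β-III tubulin, and WT mice were their littermates, the study using young adult mice of both sexes. No lung without bleomycin and no heterozygous mouse was analysed here. Every mouse gave a whole-cell library (live cells without erythroid cells) and a mural cell-enriched library (depleted of endothelial, immune and epithelial cells before sorting), each tagged by mouse and read in 2 pools.

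NK cells were chosen by their own transcripts, which were therefore used up as evidence. A cell was taken when it held 200 to 7500 genes and at most 15% mitochondrial UMIs (unique molecular identifiers, each 1 captured transcript), when at least 2 of Ncr1, Klrb1c, Gzma and Eomes had 1 or more UMIs, and when Cd3e, Cd79a, C1qa, Cdh5, Pdgfra and Epcam were all at 0. Of 30860 cells within the limits, 272 were chosen, 269 in the whole-cell libraries and 3 in the mural cell-enriched libraries. WT mouse 1 gave 89 NK cells, WT mouse 2 gave 95, Tubb3-/- mouse 1 gave 56 and Tubb3-/- mouse 2 gave 32. All 4 markers were held by 156 cells, 3 by 89 and 2 by 27. A further 160 cells held 2 or more markers but also an exclusion gene, most often Cdh5 (59 cells), Pdgfra (44) or Cd3e (35). On the near side of the threshold, Nkg7, a granule gene of cytotoxic lymphocytes outside the rule, was found in 22 of the 27 cells with 2 markers. Just outside it, Nkg7 was found in 18 of 244 cells with exactly 1 marker, in 189 of which that marker was Gzma.

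The libraries of the whole-cell pool held 3119 to 4179 cells within the limits at a median of 9436 to 12724 UMIs. NK cells held fewer transcripts, with medians of 5324, 5140.0, 5382 and 6314.5 UMIs in WT mouse 1, WT mouse 2, Tubb3-/- mouse 1 and Tubb3-/- mouse 2. Tubb3 itself gave 83 and 35 UMIs in the WT and 18 and 17 UMIs in the Tubb3-/- whole-cell libraries, and 1 UMI in all 272 NK cells, in a WT mouse. No barcode was shared between libraries of 1 pool; 55 barcodes occurred in both pools, 2 of them in NK cells.

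The label was checked against genes that the rule did not use. Ptprc, the pan-leukocyte CD45, had a UMI in all 272 cells. Prf1 (perforin) had one in 254, Nkg7 in 264, Klrk1 (the activating receptor NKG2D) in 262 and Ccl5 in 269. The T cell genes Cd3d and Trac had a UMI in 16 and 30 cells, whereas the T cell receptor β constant genes Trbc1 and Trbc2 had one in 189 and 114. The basophil and mast cell, platelet and ILC2 lists were low, with summed levels of 1.08, 3.23 and 65.1 CPM (UMIs of a gene per 1000000 UMIs). The macrophage and monocyte, mesenchymal, epithelial and neutrophil lists summed to 4804, 3804, 1545 and 1047 CPM, and the cells that held most of the macrophage and neutrophil transcripts are described further on. Some transcripts occurred in nearly all cells of every kind, such as the club cell gene Scgb1a1 in 268 NK cells and the matrix gene Mgp in all 272. For comparison, Pdgfra-positive fibroblast-lineage cells, which should lack NK genes, held Nkg7 in 7.14% and Prf1 in 2.61% of 3181 cells at a median of 18421 UMIs, against 97.1% and 93.4% of NK cells at a median of 5321.5 UMIs. After every cell was thinned to 2000 UMIs the shares were 2.06% and 0.917% of Pdgfra-positive cells and 92.5% and 77.2% of NK cells.

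Beside the rule's own genes, NK cells were set apart by Ly49 receptors, granule genes and chemokines. These levels describe a group defined by its transcripts and carry no test. Among genes at or above 200 CPM in NK cells, the 20 with the largest ratio to all other cells were led by Klra4 (999 against 1.76 CPM), Klra8 (813 against 1.51 CPM) and Klra9 (408 against 0.783 CPM), 3 Ly49 receptors. The 4 rule markers followed among the first 7, with Gzma, the granule protease granzyme A, at 7479.8 CPM and the highest level of the 4. Prf1 stood at 921 against 2.63 CPM. Klre1 and Klri2, which form an NK receptor pair, and Klrc2 (NKG2C) were at 785, 263 and 239 CPM. Ccl5, the chemokine RANTES, was the most abundant of the 20 genes at 12267 CPM. The list closed with Tbx21 (the transcription factor T-bet, 274 CPM) and Il12rb2 (a chain of the interleukin-12 receptor, 665 CPM). CD8 T cells, taken as Cd3e-positive cells with Cd8a or Cd8b1 (230 cells), shared part of this programme at lower levels, with Ccl5 at 2155 CPM, Nkg7 at 385 CPM and Prf1 at 50.8 CPM, whereas the Ly49 list summed to 65.5 CPM in CD8 T cells and 2872 CPM in NK cells. ILC2 (194 cells with at least 2 of Gata3, Il1rl1, Il5 and Il13) held 3.47 CPM of Ly49 transcripts and higher levels of Rora (2339 against 174 CPM) and Il7r (1192 against 59.2 CPM), a transcription factor and a cytokine receptor of helper innate lymphocytes.

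**Figure D1:**
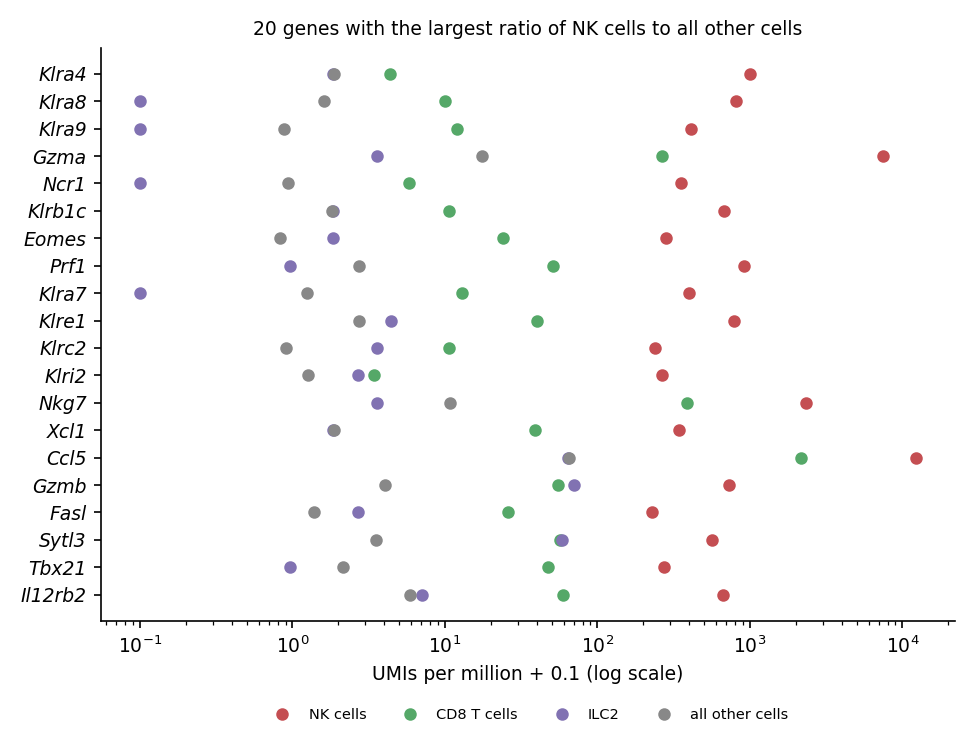
Level of each of the 20 genes with the largest ratio in NK cells, as CPM plus 0.1 on a log axis, in NK cells, CD8 T cells, ILC2 and all other cells; each point is 1 level summed over the cells of a type in all 8 libraries, with no error bar. Klra4 stood at 999 CPM in NK cells and 4.27 CPM in CD8 T cells, while Ccl5 was at 12267 and 2155 CPM.

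The promoters of 2 genes are shown because the text turns on them: Ncr1, which chose the cells, and Ccl3, which is compared by genotype further on. They run from 250 bases before to 50 bases after the transcription start (RefSeq, GRCm38.p6), 5′ to 3′ on the gene's strand. Capitals mark TGTGGT, the core letters bound by RUNX factors, searched on both strands, so that ACCACA is the same motif read from the other strand. Ncr1 lies on the plus strand at chr7:4337465-4337764 and Ccl3 on the minus strand at chr11:83649329-83649628.
Ncr1: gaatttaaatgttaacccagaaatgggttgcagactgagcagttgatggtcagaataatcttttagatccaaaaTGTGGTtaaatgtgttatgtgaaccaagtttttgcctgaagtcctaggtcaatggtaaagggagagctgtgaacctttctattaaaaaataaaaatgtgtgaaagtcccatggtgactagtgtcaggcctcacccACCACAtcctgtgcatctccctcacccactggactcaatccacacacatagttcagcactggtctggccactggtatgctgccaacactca
Ccl3: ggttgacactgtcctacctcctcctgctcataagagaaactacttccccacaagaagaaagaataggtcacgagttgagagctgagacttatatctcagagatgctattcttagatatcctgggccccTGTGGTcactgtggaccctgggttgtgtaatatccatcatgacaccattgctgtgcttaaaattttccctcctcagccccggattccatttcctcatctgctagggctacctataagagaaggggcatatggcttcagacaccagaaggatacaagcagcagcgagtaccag
Ncr1 held the motif 2 times and Ccl3 1 time, and 16.8% of 32851 RefSeq promoters of this length held it at least once. The AP-1 letters TGANTCA and the T-box letters GGTGTGA were in neither window, and 7.81% and 3.98% of all promoters held them.

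NK cells varied among themselves in receptors and maturation. At least 2 of the 11 Ly49 genes had UMIs in 85.7% of cells and none in 4.78%. Klra8 (the activating Ly49H) had a UMI in 65.4%, Klra9 in 59.6%, Klra4 (Ly49D) in 55.1%, Klra7 (Ly49G) in 49.6% and Klra3 (Ly49C) in 30.5%. Ly49 genes are close copies of each other, so reads may be split or lost among them. Itgam (CD11b, of mature NK cells) without Cd27 was found in 107 cells, Cd27 (of less mature cells) without Itgam in 39, both in 45 and neither in 81. Cells with Itgam and no Cd27 made up 33.7% and 48.4% in WT and 25.0% and 53.1% in Tubb3-/- mice, so the genotypes overlapped. At this depth a gene not seen in a cell is not shown to be absent from it. Thinned to 2000 UMIs, Zeb2, which drives terminal maturation, had a UMI in 45.1% of NK cells and 53.5% of Pdgfra-positive cells (72.1% and 89.9% before thinning). S1pr5, which lets NK cells leave tissue for blood, had one in 7.46% against 0.348% (20.2% and 0.943% before thinning). The 15 genes of residency and type 1 innate lymphoid cells summed to 943 CPM in NK cells, 3080 CPM in CD8 T cells and 9217 CPM in ILC2, and 4 of them were above their level in all other cells. One of these was Cd69, at 90.9 against 14.9 CPM and with a UMI in 27.9% of NK cells. Itgae (CD103) had a UMI in 4.04% and Cxcr6 in 2.94% of NK cells, and after thinning in 1.87% and 1.12%, against 1.49% and 1.61% of Pdgfra-positive cells, so neither stood clear of background. Itga1 (CD49a) without Eomes, the pattern of type 1 innate lymphoid cells, occurred in 13 cells. After thinning, Itga1 had a UMI in 4.85% of NK cells and 11.0% of Pdgfra-positive cells (10.7% and 42.6% before thinning). These 13 cells are therefore not shown to stand clear of background. Cxcr3, the receptor of CXCL9 and CXCL10, was seen in 16 of 272 cells (9.14 CPM). Thinned to 2000 UMIs, Cxcr3 had a UMI in 1.87% of NK cells and 0.316% of Pdgfra-positive cells (5.88% and 1.98% before thinning). Cxcr4 was seen in 56.3% of NK cells, at 188 against 28.0 CPM in all other cells. The checkpoint receptors Pdcd1 and Lag3 were seen in 7 and 4 cells (2.57% and 1.47%). Their levels were 8.61 and 2.15 CPM in NK cells and 7.79 and 5.64 CPM in all other cells. Only 5 cells held 3 or more UMIs of 10 mitosis genes.

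NK cells were fewer in both Tubb3-/- lungs than in both WT lungs. They made up 2.61% (89 of 3406; 95% exact Clopper-Pearson interval 2.10 to 3.21%) and 2.98% (93 of 3119; 2.41 to 3.64%) of whole-cell library cells in WT mice 1 and 2. In Tubb3-/- mice 1 and 2 they made up 1.32% (55 of 4179; 0.993 to 1.71%) and 0.926% (32 of 3456; 0.634 to 1.30%). The intervals cover counting error only. The groups did not overlap, and the mean was 2.80% ± 0.261 (SD, n = 2) in WT and 1.12% ± 0.276 (SD, n = 2) in Tubb3-/- lungs, a log2 ratio of -1.32. With 2 mice per genotype an exact two-sided permutation test cannot go below 0.333, which was the p obtained, so the design could not reach 0.05. Mouse 1 of each genotype was male and mouse 2 female by Xist and Y-linked transcripts, and the share was lower in the Tubb3-/- mouse of either sex. These are shares of captured cells after tissue digestion and sorting, and cell numbers per lung were not measured.

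Cd3e-positive T cells, CD8 T cells and ILC2 did not show the same gap, and shares of other lymphoid cells were not compared. Cd3e-positive T cells made up 8.75% and 5.71% in WT and 8.47% and 7.38% in Tubb3-/- lungs, and CD8 T cells 2.41% and 1.12% against 1.51% and 1.42%, so the groups overlapped for both. ILC2 were at 1.23% and 1.22% in WT and slightly above in Tubb3-/- lungs, at 1.29% and 1.45%. Set against T cells of the same lung, there were 29.9 and 52.2 NK cells per 100 T cells in WT and 15.5 and 12.5 in Tubb3-/- mice (exact permutation p = 0.333, the smallest possible). Cells with a Ptprc UMI made up 65.9% and 60.1% of WT and 58.4% and 58.5% of Tubb3-/- whole-cell libraries. Taken as a share of those cells, NK cells were at 3.97% and 4.96% in WT and 2.25% and 1.58% in Tubb3-/- lungs.

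**Figure D2:**
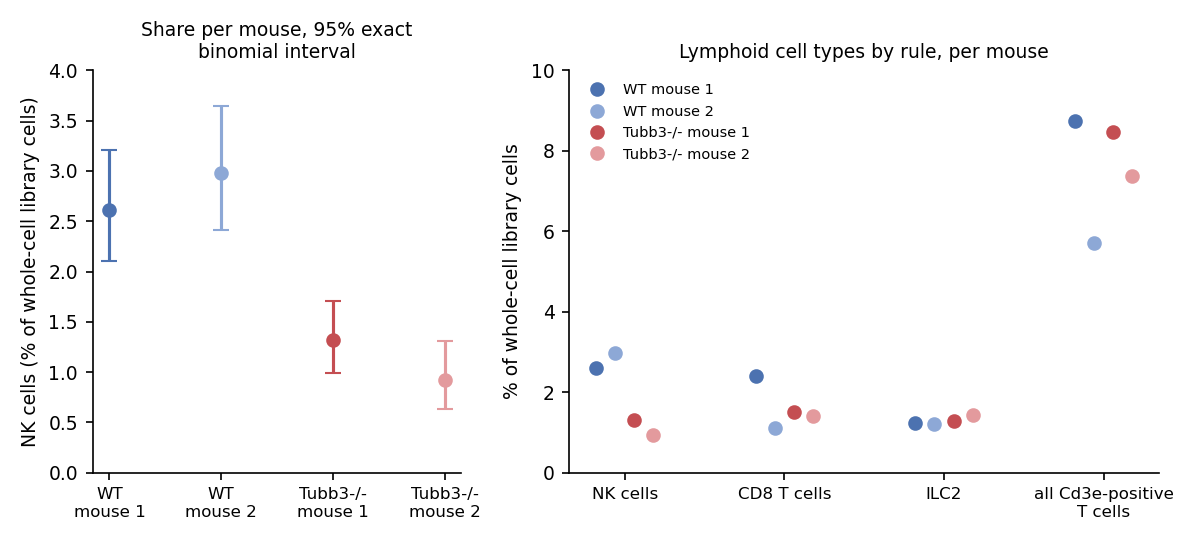
Left, NK cells as percent of whole-cell library cells in each mouse, with 95% exact binomial intervals; right, the shares of NK cells, CD8 T cells, ILC2 and all Cd3e-positive T cells, 1 point per mouse. The 2 WT mice sit at 2.61% and 2.98% NK cells and the 2 Tubb3-/- mice at 1.32% and 0.926%, while the T cell points of the genotypes overlap.

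Some NK cells also held many transcripts of another cell type, and these were spread unevenly over the mice. Counting UMIs over lists of 4 to 12 genes for 12 other cell types, 30 of 272 cells had 40 or more UMIs of at least 1 list, and are called mixed cells below. They were 8 of 89 and 5 of 95 cells in WT mice, and 10 of 56 and 7 of 32 cells in Tubb3-/- mice. Macrophage and monocyte genes (C1qb, C1qc, Lyz2, Csf1r and others) reached 46 to 2319 UMIs in 9 cells, 4 and 5 from the Tubb3-/- mice and 0 from either WT mouse, while none of the 242 cells without mixing had more than 12 UMIs of them. Mesenchymal genes reached 40 UMIs in 11 cells, neutrophil genes in 2, dendritic cell genes in 4, T cell genes in 4 and epithelial genes in 4. Not every list left a clear gap at the limit. Cells without mixing reached 36 UMIs of mesenchymal, 36 of dendritic cell and 34 of epithelial genes. Mixed cells held 40 to 49 UMIs of the epithelial list and 44 to 48 of the T cell list. Mixed cells had a median of 15367.5 UMIs and the other 242 cells a median of 5158.5. They held 16.1% and 13.0% of the NK transcripts of the WT mice but 43.3% and 45.2% of those of the Tubb3-/- mice. Scrublet, a doublet caller, marked none of the 272 cells. Cells with 40 or more UMIs of macrophage and monocyte genes made up 20.9% and 24.2% of all whole-cell library cells in WT and 17.8% and 20.3% in Tubb3-/- mice. Whether mixed cells are 2 cells in 1 droplet was not tested. Without them NK cells were at 2.38% and 2.82% in WT and 1.10% and 0.723% in Tubb3-/- lungs, with no overlap.

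**Figure D3:**
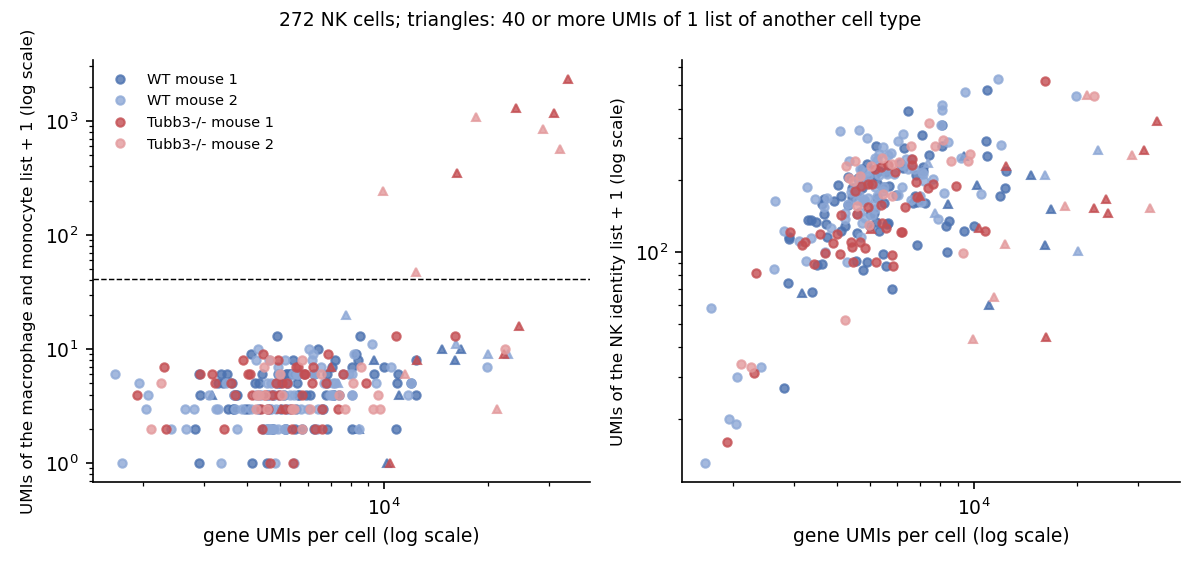
Every NK cell by its gene UMIs and its UMIs of the macrophage and monocyte list (left; dashed line, 40 UMIs) or the NK identity list (right), each plus 1 and on log axes, coloured by mouse; triangles are the 30 mixed cells. All 9 cells above the line come from the Tubb3-/- mice.

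The genotypes were then compared gene by gene on NK transcripts summed per mouse, in edgeR (quasi-likelihood F test), and p-values were adjusted over all genes tested by the Benjamini-Hochberg method. With all 272 cells, 183 of 6670 genes were called at an adjusted p below 0.05, which is 2.74% of those tested; 173 were higher and 10 lower in Tubb3-/- mice. Among called genes at 20 CPM or more and without overlap, several of the 10 with the largest rise, such as Clec4n, Fcgr4 and Ms4a6d, are known from macrophages and monocytes. Kcnip4 stood at 12.4 and 5.26 CPM in WT and 437 and 399 CPM in Tubb3-/- mice (log2 fold change 5.53 ± 0.31 SE, adjusted p = 9.45e-05). Wfdc21 was at 5.31 and 8.77 against 305 and 356 CPM. Hebp1, Ltc4s (leukotriene C4 synthase), F7 (coagulation factor VII), Ms4a6d, Clec4n (dectin-2), Atp6v0d2, Fcgr4 (an Fcγ receptor) and C530008M17Rik completed the 10, with log2 fold changes of 4.93 to 5.78. Gpm6a, Gpc3 (the proteoglycan glypican-3) and C4b (complement C4) had the largest falls. Gpm6a was at 53.1 and 61.4 CPM in WT and listed at 0 UMIs in both Tubb3-/- mice, and Gpc3 was at 99.1 and 163 against 7.08 and 6.65 CPM.

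These calls moved with the mixed cells. The macrophage and monocyte list summed to 605 and 615 CPM in WT and 12377 and 9665 CPM in Tubb3-/- NK cells. It summed to 638, 608, 748 and 545 CPM in the same order once mixed cells were left out. The rule removed cells by this list among others, so its fall in Tubb3-/- mice was fixed in advance. In the 242 remaining cells Kcnip4 had 7 UMIs left, 5 and 2 in the WT and 0 and 0 in the Tubb3-/- mice. Of 5398 genes then tested, 3 were called (0.0556%), all higher in Tubb3-/- mice. Of the 183 earlier calls, 63 still had enough UMIs to be tested, and 1 of these was called. In this fit 297 genes had an unadjusted p under 0.05, 175 higher and 122 lower. With the mouse number, which goes with sex, as a term, 23 genes were called, 19 higher and 4 lower. That term leaves less information on the spread between mice than the fit without it, so small p-values from it need caution. Limiting NK cells to 10000 UMIs, in place of this rule, left 1 call, Hspa1a. Both limits were set after seeing the data.

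Ccl3, which encodes the inflammatory chemokine MIP-1α, had the lowest adjusted p of the 3 and the smallest fold change. Its gene spans chr11:83647844-83649355 (mm10), and its promoter is shown above. In the 242 cells it stood at 293 and 279.9 CPM in WT and 605 and 1010.0 CPM in Tubb3-/- mice, with no overlap (log2 fold change 1.48 ± 0.21 SE, adjusted p = 0.00607 by edgeR). It had a UMI in 29 of 81 and 38 of 90 WT cells and in 27 of 46 and 13 of 25 Tubb3-/- cells. After thinning to 2000 UMIs the shares were 24.7%, 20.7%, 37.8% and 32.0% in the same order. A single cell held 105 of the 167 Ccl3 UMIs of Tubb3-/- mouse 2. Without the Ccl3 UMIs of the richest cell of every mouse, over unchanged totals, the unnormalized levels were 249 and 212 CPM in WT. Ccl3 was then at 403 and 379 CPM in Tubb3-/- mice. In the 9 other fits run on the 242 cells it was called each time, with log2 fold changes of 1.08 to 1.82. Of these, 5 used all 4 mice (DESeq2 and limma-voom included), and 4 left out 1 mouse and so assume that the lone mouse of a genotype varies like the other genotype's mice. With all 272 cells it was not called (log2 fold change 0.89 ± 0.22 SE, adjusted p = 0.0917), nor with the limit of 10000 UMIs (1.47, adjusted p = 0.0933). With the mouse number as a term, it was called with all 272 cells too (0.87, adjusted p = 0.0184 by edgeR).

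Single cells held many of the UMIs of the other 2 called genes, Klra5 and Top2a. With the mouse number as a term both were called (adjusted p = 0.000305 for Klra5 and 1.57e-09 for Top2a by edgeR). That fit leaves less information on the spread between mice. Klra5 (Ly49E), at 2.12, 8.17, 69.5 and 72.6 CPM in WT mouse 1, WT mouse 2, Tubb3-/- mouse 1 and Tubb3-/- mouse 2, had UMIs in 9 cells, and 15 of the 17 UMIs of Tubb3-/- mouse 1 came from 1 cell. Top2a, a topoisomerase of dividing cells, was at 8.49 and 14.3 CPM in WT and 45.0 and 254 CPM in Tubb3-/- mice, and 31 of the 42 UMIs of Tubb3-/- mouse 2 came from 1 cell. Without that mouse its adjusted p was 0.506 by edgeR, and without WT mouse 1 that of Klra5 was 0.139, each with the spread taken from the other genotype's mice. With limma-voom neither gene was called (adjusted p = 0.668 for Klra5 and 0.702 for Top2a), whereas DESeq2 called Top2a (0.0130) but not Klra5 (0.289). Top2a had UMIs in 4 and 4 WT and 7 and 4 Tubb3-/- cells. Leaving out the UMIs of the richest cell of every mouse, over unchanged totals, gave unnormalized levels that rest on few UMIs. Klra5 was then at 0.0 and 4.04 CPM in WT and 8.13 and 42.8 CPM in Tubb3-/- mice. These are 0, 2, 2 and 7 UMIs in that order, so WT mouse 2 and Tubb3-/- mouse 1 differed only by their totals. Top2a was at 6.40 and 8.08 against 24.4 and 67.3 CPM, from 3 and 4 against 6 and 11 UMIs. The replication histone genes Hist1h2ae and Hist1h2ap followed Top2a without being called. In Tubb3-/- mouse 2, 1 cell held 53 of 55 and 63 of 73 of their UMIs.

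Of 7 chemokine and cytokine genes tested in the 242 cells, Ccl3 was the 1 called, where 0.0556% of all genes were. Without overlap, 4 of them were higher in Tubb3-/- mice and 1 (Tgfb1) was lower in value, against 17.4% and 18.3% of all genes tested, and the median log2 fold change was 0.63 against -0.0027 for all genes. The summed level of the list, most of it Ccl5, overlapped at 15707 and 21071 CPM in WT and 15843 and 19403 CPM in Tubb3-/- mice. With all 272 cells 2 of 7 lay above and the median was 0.02. Ccl4 (MIP-1β), a neighbour of Ccl3, was at 1226 and 1453 CPM in WT and 1992 and 2153 CPM in Tubb3-/- mice and missed the threshold (log2 fold change 0.63 ± 0.13 SE, adjusted p = 0.119 by edgeR), but was called with the mouse number as a term (adjusted p = 0.00443). Xcl1, which attracts cross-presenting dendritic cells, was at 299 and 435 against 646 and 472 CPM. The level of Tubb3-/- mouse 2 came from 4 cells. The share of cells with an Xcl1 UMI was 51.9% and 34.4% in WT and 60.9% and 16.0% in Tubb3-/- mice, so the genotypes overlapped in it. Ifng, the macrophage-activating cytokine, was at 117 and 217 against 376 and 242 CPM. Ccl5 overlapped, at 13398 and 18648 against 11985 and 15120.0 CPM. With all 272 cells Ccl4 was at 1089.9, 1277, 1176 and 1233 CPM and the groups overlapped, against 21.6% of all genes with both Tubb3-/- mice above and 21.6% with both below.

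Of 25 immediate early and dissociation-induced genes tested in the 242 cells, none was called in the fit without covariates, which called 0.0556% of all genes. Both Tubb3-/- mice lay above for 14 and below for 1, against 17.4% and 18.3% of all genes, with a median log2 fold change of 0.33. With all 272 cells 10 of 26 lay above and 3 below, against 21.6% of all genes each way, and Egr2 was the 1 called higher, where 2.74% of all genes were called. Nr4a1, an early gene of receptor signalling, was at 344 and 300.3 CPM in WT and 421 and 550.4 CPM in Tubb3-/- mice. Cd69, an early activation antigen, was at 84.9 and 79.7 against 172 and 121 CPM, and Nfkbia, the NF-κB inhibitor, at 726 and 468 against 875 and 1113 CPM. The heat shock gene Hspa1a was at 63.6 and 131 against 397 and 139 CPM (adjusted p = 0.202 by edgeR, and 0.000305 with the mouse number as a term). These genes also respond to tissue digestion, whose part in the difference was not tested.

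**Figure D4:**
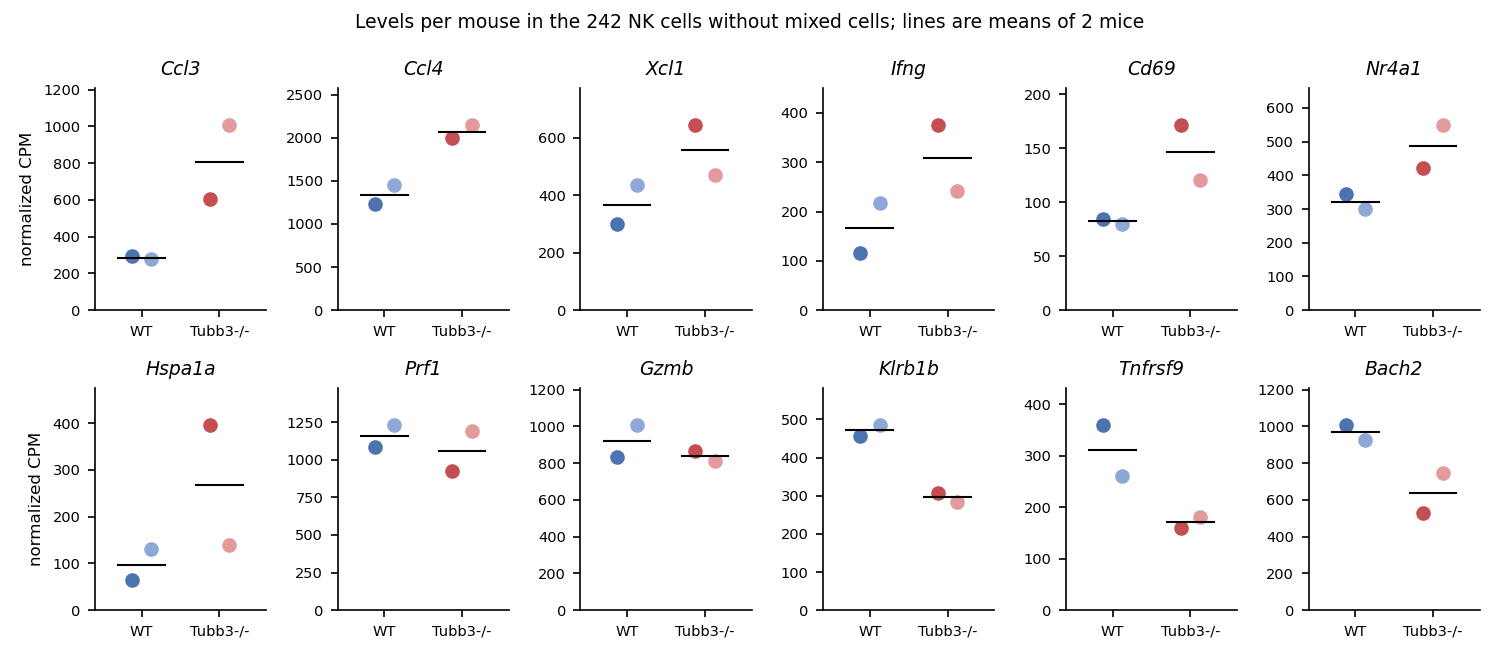
Normalized CPM of 12 genes in the 242 NK cells without mixed cells, 1 point per mouse; lines are means of 2 mice. Of these genes Ccl3 alone was called in the fit without covariates, at 293 and 279.9 CPM in WT and 605 and 1010.0 CPM in Tubb3-/- mice.

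Genes of NK identity and killing were compared without mixed cells in a fit in which 3467 of 5398 genes overlapped between the genotypes. Of 20 NK identity genes tested in the 242 cells, 3 were higher and 2 lower without overlap and 15 overlapped, and of 14 granule and death ligand genes 1 was higher, 3 were lower and 10 overlapped, against 17.4% and 18.3% of all genes. The median log2 fold changes were -0.03 and -0.13. None was called, where 0.0556% of all genes were, so the absence of a call does not show equal levels. Prf1 was at 1086 and 1234 CPM in WT and 924 and 1191 CPM in Tubb3-/- mice (log2 fold change -0.14 ± 0.15 SE). Gzmb (granzyme B) was at 834 and 1009 against 867 and 810.4 CPM, and Nkg7 at 2852 and 3039.9 against 2458 and 3278 CPM. With all 272 cells the same lists had medians of -0.45 and -0.47, with 14 of 20 and 10 of 14 genes lower in both Tubb3-/- mice, against 21.6% of all genes, and none of them called lower. The lysosomal genes Ctsd and Lamp1 of the granule list were called higher, where 2.74% of all genes were called, with log2 fold changes of 2.27 and 1.76, and neither was called in the 242 cells. Prf1 was then at 1007 and 1137 against 656 and 721 CPM.

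Among 8 Ly49 genes tested in the 242 cells Klra5 was the 1 called (0.0556% of all genes), and 2 were higher without overlap, against 17.4% of all genes. Klra3 was at 182 and 135 CPM in WT and 217 and 242 CPM in Tubb3-/- mice. Klrb1b (NKR-P1B, an inhibitory receptor) was called lower with all 272 cells, at 410.5 and 449 against 229 and 189 CPM (log2 fold change -1.03 ± 0.19 SE, adjusted p = 0.0309 by edgeR). In the 242 cells it was at 456 and 486 against 307 and 284 CPM, still without overlap but not called (log2 fold change -0.67 ± 0.19 SE, adjusted p = 0.529); 18.3% of all genes had both Tubb3-/- mice below. The transcription factor Bach2, the kinase Prkca, Setbp1 and the transcript AW112010 were also called lower with all cells and not in the 242. There Bach2 was at 1009.9 and 928 against 528 and 744 CPM, and Prkca at 490.1 and 631 against 356 and 242 CPM (log2 fold change -0.88 ± 0.21 SE, adjusted p = 0.227 by edgeR, against -1.12 with all cells). With the mouse number as a term Bach2 and Prkca were called in the 242 cells (adjusted p = 0.0409 and 0.00548), and Klrb1b was not (0.163). Tnfrsf9 (4-1BB), a costimulatory receptor, was at 361 and 262 against 159.5 and 181 CPM and was not called. On the mature side, Itgam was at 169.7 and 190.0 against 115 and 290.3 CPM and Klrg1 at 80.6 and 145 against 73.6 and 224 CPM, so the 2 Tubb3-/- mice lay on either side of the WT mice. Of 15 mature-side genes 2 were higher and 13 overlapped, and of 10 immature-side genes 1 was higher, 1 lower and 8 overlapped, with none called. S1pr1, an exit receptor, was at 70.0 and 44.9 CPM in WT, 28.6 CPM in Tubb3-/- mouse 1 and listed at 0 in Tubb3-/- mouse 2.

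Signalling and housekeeping lists held no call in the 242 cells, in a fit that called 0.0556% of all genes. This covers 20 cytokine receptor and signalling genes (median log2 fold change -0.05), 15 interferon response genes (0.10), 15 MHC class I genes (-0.01), 14 glycolysis genes (0.01), 18 oxidative phosphorylation genes (-0.13), 5 chemokine receptors (0.04) and 7 tubulins (0.44). Without overlap, 4 of the oxidative phosphorylation genes were higher and 7 lower, and 2 of the signalling genes were higher and 4 lower, against 17.4% higher and 18.3% lower of all genes. Il2rb, the receptor chain shared by interleukin-2 and interleukin-15, was at 1226 and 1058 against 1166 and 1089 CPM. The tubulins that stood highest, Tubb5 and Tuba1b, did so in 1 mouse, with Tubb5 at 127, 159, 155 and 351 CPM and Tuba1b at 61.5, 71.5, 57.3 and 218 CPM in WT mouse 1, WT mouse 2, Tubb3-/- mouse 1 and Tubb3-/- mouse 2. Of 9 cell cycle genes tested in the 242 cells, Top2a was the 1 called, where 0.0556% of all genes were. Without overlap 2 were higher and 1 lower, against 17.4% and 18.3% of all genes. The median log2 fold change was 0.40.

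**Figure D5:**
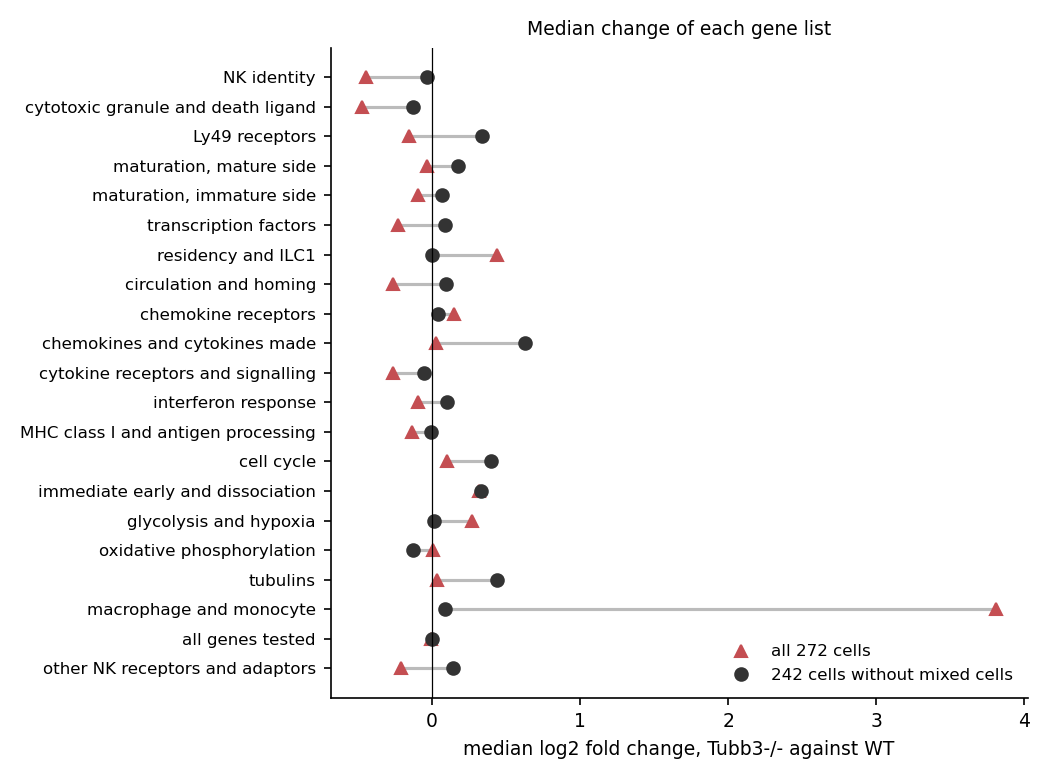
Median log2 fold change (Tubb3-/- against WT) of the tested genes of each list with all 272 NK cells (triangles) and without the 30 mixed cells (circles). The macrophage and monocyte list moves from 3.81 over 6 tested genes to 0.09 for the 1 gene still tested, a move set by the rule, which removed cells by this list. The NK identity list moves from -0.45 to -0.03.

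Whether the change in NK cells differed from that in T cells of the same lungs was tested with a genotype by cell type term. With all NK cells 146 of 9775 genes were called (1.49%), 134 of them with a more positive and 12 with a more negative change in NK cells than in T cells. Without mixed NK cells 2 of 9593 genes were called by edgeR, with 434 at an unadjusted p under 0.05. One was Ccl3, at 22.03 and 21.1 CPM in WT and 9.35 and 18.3 CPM in Tubb3-/- T cells, whose change in NK cells exceeded that in T cells by 2.13 ± 0.31 SE on the log2 scale (adjusted p = 0.0152). The other was the haemoglobin gene Hbb-bs, at 1387 CPM in the T cells of Tubb3-/- mouse 1 and about 20.5 CPM in those of Tubb3-/- mouse 2. In T cells alone, none of 10910 genes was called by genotype, with 617 at an unadjusted p under 0.05.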

How the data were processed

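Single cells of 2 WT and 2 Tubb3-/- lungs were measured with 10x 3′ v3.1 chemistry after sample tagging. The authors aligned and counted with Cell Ranger 7.1.0 against mm10 and deposited 1 matrix of raw UMI counts per mouse and library kind. Matrices were assigned to mice by the tag the labels give, which led the tag counts in every matrix. Mice of 1 genotype are separate animals. Cell Ranger and mm10 are named in the submitters' processing notes; gene positions come from GENCODE M21.

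Cells were filtered at 200 to 7500 genes and at most 15% mitochondrial UMIs. The members and the gene lists were chosen with earlier results of these data known. Members of both libraries were summed per mouse and tested with edgeR 4.0.16 (filterByExpr, TMM, glmQLFit and glmQLFTest, Benjamini-Hochberg adjusted p below 0.05, no covariates). The 10 genes of the rule were left out of the test. Shares used the whole-cell libraries and an exact permutation test over mice. Named genes were, in each direction, the 10 called genes that changed most, at 20 CPM or more and without overlap, filled by genes at 100 CPM or more with the smallest p, and the listed genes; the same rule was repeated without mixed cells. Genes set against other cells were the 20 with the largest ratio at 200 CPM or more. The 2 limits on NK cells, 10000 UMIs and 40 UMIs of another cell type's list, were chosen after seeing the data. Values were computed in R 4.3.3 and Python with scipy 1.17.1. Alternatives were DESeq2 1.42.0, limma-voom 3.58.1, other size factors, no filter, other marker numbers, thinning to 2000 UMIs, Scrublet (scanpy 1.11.5), a replicate block and leaving out each mouse. The edgeR genotype fit with all NK cells was tested on simulated data, and the other fits were not. Depth was 298190 to 569067 NK transcripts per mouse.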

Additional observations from a re-analysis of the deposited data

Results flagged for a closer look

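The genotype change in NK cells differed from that in T cells of the same mice, by the genotype by cell type term in edgeR with all NK cells, for 12 of the named genes. The difference of log2 changes was 6.25 for Kcnip4, 6.03 for Ltc4s, 5.84 for C530008M17Rik, 5.78 for Hebp1, 5.67 for Fcgr4, 4.97 for Wfdc21, 4.75 for Atp6v0d2, 4.59 for Clec4n and 4.57 for F7. It was -12.14 for Gpm6a, -5.41 for Gpc3 and -3.56 for C4b; the value of Gpm6a depends on the small count added to 0 UMIs and is no bound. These 12 genes had at most 16 UMIs each in NK cells without mixed cells, except C4b with 19, which is too few for the genotype test there. Without mixed cells Ccl3 differed from T cells by 2.13.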

How the results depend on the processing

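The lower share of NK cells in Tubb3-/- lungs kept its direction under every alternative run, with a log2 ratio of -1.22 to -1.51, and of -1.09 to -1.60 when 1 mouse was left out. The count of 183 called genes did not hold. It was 94 with limma-voom, 45 without a filter on low counts, 110 with 3 of 4 markers, 2 with T cell receptor genes also at 0, 1 with at most 10000 UMIs and 3 without mixed cells. It ranged from 64 (without WT mouse 1) to 239 (without Tubb3-/- mouse 1) when 1 mouse was left out, with the spread then taken from the other genotype, and was 123 without WT mouse 2. DESeq2 called 147. With the replicate number as a block 339 genes were called, in a fit that leaves less information on the spread between mice. The labels do not say that a number marks a shared litter or day. Mice of 1 number were of 1 sex, so this fit compares genotypes within sex. The deviations of same-numbered mice correlated at 0.124. Without mixed cells the same block gave 23 calls, and leaving out 1 mouse 14 to 81. Genes whose change differed from T cells numbered 146, or 85 without a mouse block, 415 without a filter and 2 without mixed cells. For 36 named genes, over the settings in which each could still be tested, 451 values kept their direction and side of the threshold, 67 lost the call, 34 gained it and 5 turned direction. Many could not be tested in the settings with fewer cells; without mixed cells 15 stayed on their side of the threshold, 6 lost the call and 2 gained it. Ccl4 turned to -0.020 without a filter, and ranged from -0.11 (without WT mouse 1; -0.031 without Tubb3-/- mouse 2) to 0.11 when 1 mouse was left out. Samsn1 ranged from -1.13 to 0.023 (without Tubb3-/- mouse 1) when 1 mouse was left out, and Pan3 turned to 0.25 with T cell receptor genes at 0. The causes were not tested, beyond the smaller number of cells or genes that a setting leaves. Tubb3-/- mouse 2 gave 32 NK cells and 298190 transcripts, which limits what can be seen of low genes.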
